A study of Drosophila melanogaster with 12 samples.

Results

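The comparison described here set F1 male Drosophila melanogaster whose mothers had been exposed to methylphenidate against F1 males whose parents had both been exposed to sucrose. The members were chosen by the titles of the samples: 3 arrays of sons of exposed mothers (labelled wt, sucrose-exposed father) and 3 arrays of control sons (labelled wt, sucrose-exposed father and mother), 6 of the 12 arrays of the series. The other 6 arrays came from males labelled wt that had themselves received methylphenidate or sucrose for 24 hours, 3 arrays each, and are used here only to show where the sons differ from them. Each array held RNA of 8 pooled whole flies. The labels give no strain, age of the flies, dose or length of the parents' exposure. The sample labels describe 2 crosses, but the design text describes the drug cross alone for the 6 F1 samples. The labels were followed, and every value below rests on them. Whether replicates were separate cultures is not stated, so p-values measure only how far these samples scatter, and precision is limited by the 3 arrays a group.

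Methylphenidate is a psychostimulant that blocks the reuptake of dopamine by its transporter, and flies take it up with food. In flies, RNA and protein that a mother loads into the egg, and the condition in which she lays it, are known routes by which her state can reach her offspring. An adult fly balances stored and circulating nutrients through its fat body, the counterpart of liver and fat tissue, under the opposing control of insulin-like peptides and adipokinetic hormone. Its circadian clock runs on a loop in which the CLOCK and CYCLE proteins switch on period and timeless, whose products then hold CLOCK and CYCLE back.

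The flies carried the RNA of adult males. SP, which encodes the sex peptide of the accessory gland, had log2 signals of 9.50 to 9.54 in sons of exposed mothers and 9.47 to 9.53 in control sons, and the sperm gene Mst87F lay between 9.05 and 9.31 in all 6. Of the female markers, the yolk protein gene Yp1 lay between 0.01 and 0.07 and the chorion genes Cp36 and Cp38 at 0.25 or below, near the floor of the array. Yp3 was measurable, at 3.08 to 3.36 in sons of exposed mothers and 2.97 to 3.62 in control sons. Arrays of sons of exposed mothers correlated with each other at 0.9969 to 0.997, and arrays of control sons at 0.9951 to 0.9966. One array stood apart: replicate 3 of the control sons had a median log2 signal of 1.37, against 1.495 to 1.55 for the sons of exposed mothers and 1.51 and 1.52 for the other two control arrays. The group medians averaged 1.53 ± 0.030 in sons of exposed mothers and 1.46 ± 0.086 in control sons (SD, n = 3 each, exact permutation p = 0.3, two-sided, where the smallest possible is 0.1).

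In sons of exposed mothers 1 of 18769 probe sets, 0.00533%, passed a Benjamini-Hochberg adjusted p of 0.05 in limma. A probe set is the group of short probes that reads 1 transcript, and this one, 1626830_at, has no gene name here. It was dim, with log2 signals of 1.20, 1.57 and 1.48 in sons of exposed mothers and 0.59, 0.37 and 0.40 in control sons. The groups did not overlap, and it rose by a log2 change of 0.96 ± 0.12 (SE, limma adjusted p = 0.0219). In males exposed themselves the change was 0.12 (adjusted p = 0.725). The call was lost without replicate 2 of the control sons (adjusted p = 0.159), without replicate 3 of them (0.0819), and without replicate 2 (0.219) or 3 (0.207) of the sons of exposed mothers. It was also lost with array weights (0.0665) and with the replicate number as a block (0.0511). No named gene passed, so the genes below are described by their values, and what is called higher or lower refers to the measured difference. In whole flies, fewer cells of a type and less RNA per cell cannot be told apart.

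Beneath that threshold the changes leaned upward. An unadjusted limma p under 0.05 was reached by 1081 probe sets that were higher in sons of exposed mothers, 5.76% of those tested, and by 432 that were lower, 2.3%. All 3 arrays of the sons of exposed mothers lay above all 3 control arrays for 7.56% of probe sets, and below them for 3.94%. This lean moved with the dim control array. Without replicate 3 of the control sons 552 probe sets (2.94%) were higher and 527 (2.81%) lower, and after quantile normalization the counts were 707 (3.77%) and 710 (3.78%). Centring each array on its median gave 395 higher and 1183 lower. The share of higher among small p-values was thus 71.4% with the deposited values, 49.9% after quantile normalization, 51.2% without that array and 25.0% after centring. The direction of single genes named below is given with these settings where it turns. List counts given below for a setting are to be set against the shares of all probe sets in that same setting.

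**Figure D1:**
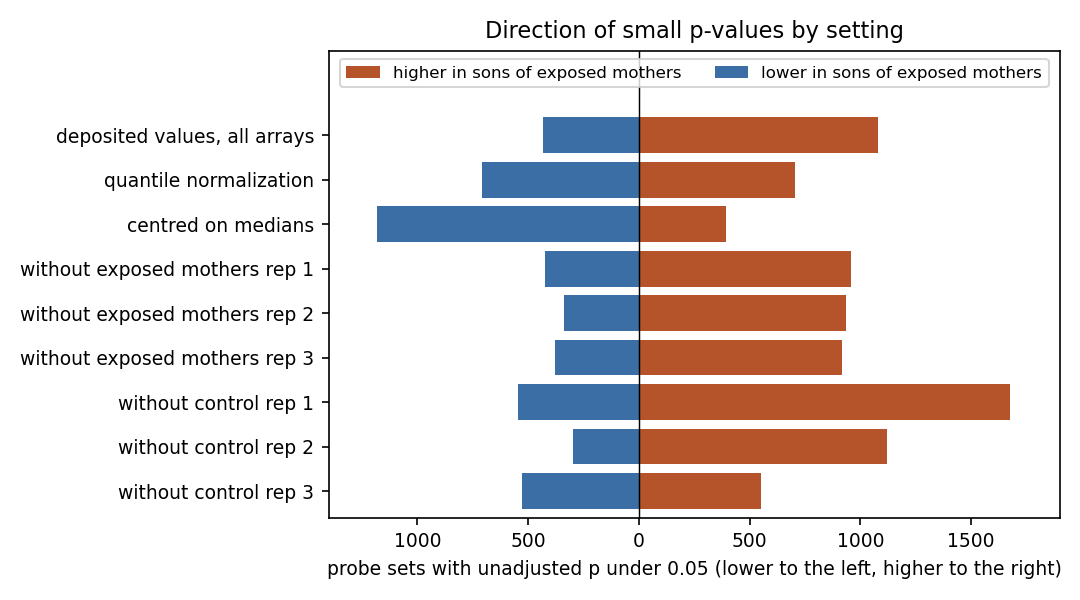
Number of probe sets with an unadjusted limma p under 0.05 in the F1 comparison, higher in sons of exposed mothers to the right and lower to the left, for the deposited values, other scalings and each F1 array left out (rep, replicate). Higher probe sets outnumber lower ones in the deposited values, 1081 against 432, but not after quantile normalization (707 against 710) or centring (395 against 1183), and barely without control replicate 3 (552 against 527).

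**Figure D2:**
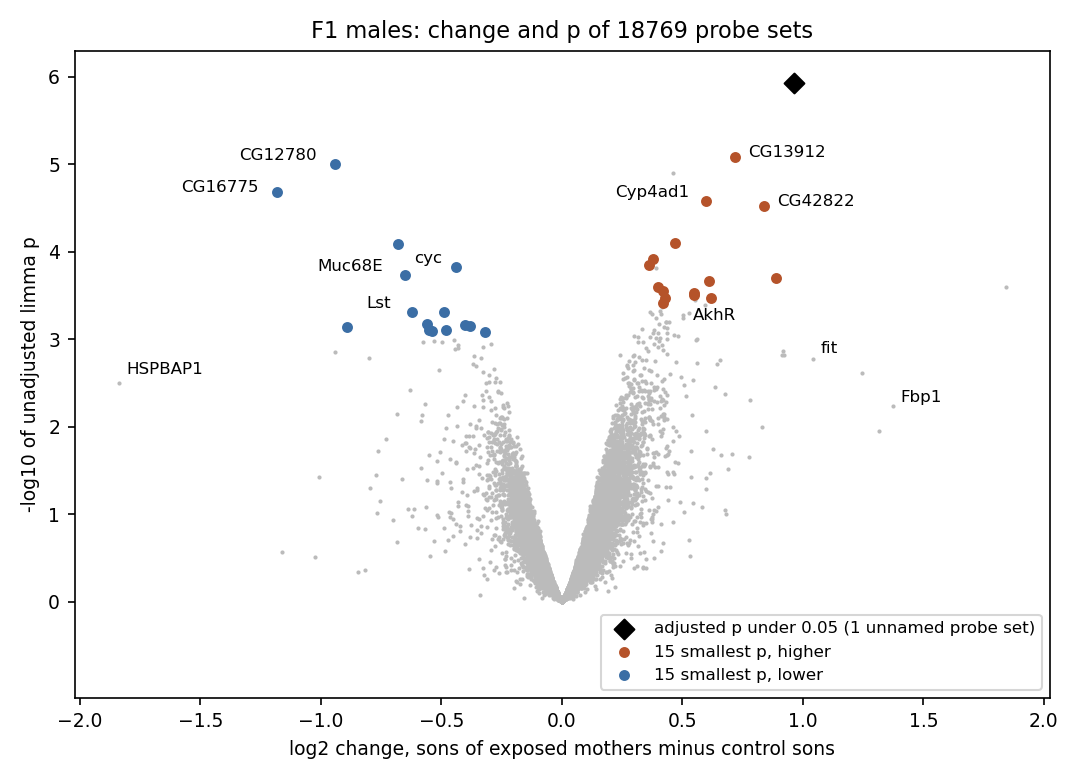
Log2 change of each probe set between sons of exposed mothers and control sons (horizontal) against -log10 of its unadjusted limma p (vertical). The diamond is the single probe set with an adjusted p under 0.05. Coloured points are the 15 named probe sets with the smallest p in each direction, and the widest changes, such as those of HSPBAP1 and Fbp1, have larger p-values than these.

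Among named genes that were higher, CG13912 had the smallest p. Its log2 signal was 2.34, 2.47 and 2.76 in sons of exposed mothers and 1.81, 1.86 and 1.74 in control sons, a change of 0.72 ± 0.11 (SE, limma adjusted p = 0.0581). Cyp4ad1, which encodes a cytochrome P450, measured 2.97, 3.15 and 3.10 in sons of exposed mothers against 2.35, 2.56 and 2.51 in control sons. The groups lay apart by more than the range within either, with a change of 0.60 ± 0.10 (adjusted p = 0.0806). CG42822 read 4.18, 3.85 and 3.76 in sons of exposed mothers and 3.21, 3.23 and 2.82 in control sons, which gave 0.84 ± 0.14 (adjusted p = 0.0806). CG4250 was at 4.18, 3.95 and 3.67 in sons of exposed mothers and at 2.93, 3.17 and 3.04 in control sons (0.89 ± 0.18, adjusted p = 0.248).

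The other genes of this group had changes between 0.36 and 0.62. CenB1A, an Arf GTPase-activating protein, changed by 0.47, and mub, an RNA-binding protein with KH domains, by 0.42, with 0.36 in its second probe set. Ctr1C, a copper transporter, differed by 0.36, with 2.44, 2.58 and 2.60 in sons of exposed mothers and 2.22, 2.09 and 2.22 in control sons. Jabba, which anchors histones on lipid droplets, was higher in both of its probe sets, by 0.41 and 0.55. The splicing factor gene Prp6 (0.42), muskelin (0.40), CG12402 (0.38), CG17598 (0.61), CG34165 (0.55), CG13743 (0.62) and CG8490 (0.43) completed the 15, these 7 with signals under 3 on every F1 array. In all 15 the 3 values of the sons of exposed mothers lay above the 3 of the control sons.

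CG12780, a relative of the glucan recognition proteins that bind microbial cell walls, led the genes that were lower. It had 4.74, 4.47 and 4.60 in sons of exposed mothers and 5.60, 5.74 and 5.28 in control sons, a change of -0.94 ± 0.14 (SE, limma adjusted p = 0.0581). CG16775 showed 3.25, 3.05 and 3.09 in sons of exposed mothers and 4.55, 4.32 and 4.05 in control sons. Its groups were separated by more than the spread of either (-1.18 ± 0.19, adjusted p = 0.078). CG15255 had 3.73, 3.36 and 3.45 in sons of exposed mothers against 4.05, 4.36 and 4.19 in control sons (-0.68 ± 0.12, adjusted p = 0.169). The mucin gene Muc68E read 2.64, 2.65 and 2.10 in sons of exposed mothers and 3.08, 3.22 and 3.05 in control sons (-0.65 ± 0.13, adjusted p = 0.248).

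Further down this list stood genes of polyamine synthesis, cell division and glycosylation. Odc1, an ornithine decarboxylase, measured 4.02, 4.06 and 3.89 in sons of exposed mothers and 4.28, 4.55 and 4.27 in control sons (-0.38). The kinetochore gene Zw10 changed by -0.32, the fucosyltransferase gene FucTC by -0.48 and the neprilysin-family peptidase gene Nep7, at signals near the floor, by -0.40. CG15818 (-0.49), CG5506 (-0.56), CG30033 (-0.89), CG14219 (-0.55) and CG8708 (-0.54) also belonged to the 15, with adjusted p of 0.275 each. All 15 were lower in every array of the sons of exposed mothers than in any control array. The remaining 2 members, the clock gene cyc and the hormone gene Lst, are described with their pathways.

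**Figure D3:**
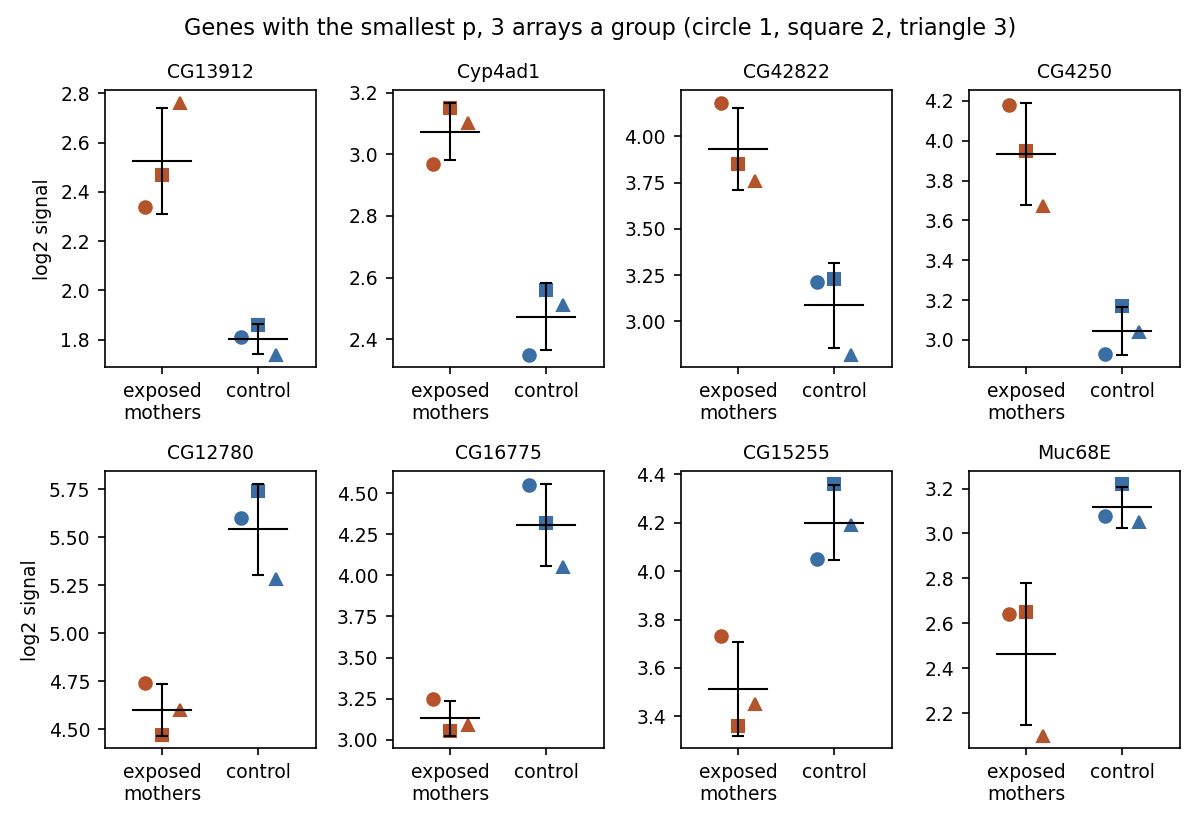
Log2 signal of 8 genes among those with the smallest p, 1 point per array of 8 pooled flies, sons of exposed mothers on the left and control sons on the right of each panel. Lines are group means and bars 1 SD (n = 3). In each panel the 3 values of one group lie apart from the 3 of the other, and no gene shown reached an adjusted p under 0.05.

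Several genes of nutrient signalling and lipid storage had higher signals in sons of exposed mothers. Of 42 measured genes 8 were higher and 1 lower at an unadjusted p under 0.05, and 9 higher and 1 lower without overlap. Over all probe sets these shares were 5.76% and 2.3% by p, and 7.56% and 3.94% without overlap. The median log2 change of the list was 0.06, against 0.03 over all probe sets. After quantile normalization, and without control replicate 3, the counts were 6 higher and 1 lower. None passed the adjusted threshold. This list, like those below, was chosen with earlier results of these data known, so its counts are a description and no independent test.

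Among receptors and hormones, AkhR, the receptor of adipokinetic hormone, had 4.32, 4.28 and 4.63 in sons of exposed mothers and 4.0, 4.0 and 3.72 in control sons (0.50 ± 0.11, limma adjusted p = 0.275), while a second, dim probe set of the gene differed by -0.02. CCHa2, a nutrient-responsive peptide hormone of fat body and gut that promotes insulin-like peptide release, was at 5.57, 5.47 and 5.39 in sons of exposed mothers and 5.18, 5.17 and 4.88 in control sons (0.40 ± 0.09). Lst encodes limostatin, a peptide that restrains insulin-like peptide release, and was lower, with 5.31, 5.11 and 5.15 in sons of exposed mothers and 5.82, 6.02 and 5.58 in control sons (-0.62 ± 0.14). None of these 3 genes had overlapping groups. The insulin-like peptide gene Ilp5 differed by 0.29 (unadjusted p = 0.0325), while Ilp2 differed by 0.09 and the hormone gene Akh by 0.08 (unadjusted p = 0.350 and 0.375); these 3 were chosen after their values were seen.

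Genes of the fat body's response to food and of its lipid droplets followed. The satiety peptide gene fit measured 6.94, 6.63 and 6.65 in sons of exposed mothers and 5.96, 5.84 and 5.29 in control sons, a change of 1.04 ± 0.27 (adjusted p = 0.322). The sugar-responsive transcription factor gene sug read 3.02, 3.30 and 3.06 in sons of exposed mothers against 2.66, 2.64 and 2.56 in control sons (0.51 ± 0.14). The perilipin gene Lsd-1, whose protein coats lipid droplets, had 6.38, 6.36 and 6.56 in sons of exposed mothers and 6.01, 6.19 and 5.78 in control sons (0.44 ± 0.11). In each of these genes every array of the sons of exposed mothers lay above every control array. The triglyceride lipase gene bmm, chosen after its values were seen, differed by 0.10 (unadjusted p = 0.375) and its groups overlapped.

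In males exposed themselves 25 of the 42 nutrient genes had the opposite sign, as had 10570 of all 18769 probe sets. Of the 42, 9 passed in exposed males with the opposite sign and 2 with the same sign, among them bmm (0.47, adjusted p = 0.0293). Of all 18769 probe sets, 389 passed in exposed males with the opposite sign and 240 with the same sign. All 9 nutrient genes with an unadjusted p under 0.05 in the sons had a sign opposite to that of the exposed males, and 7 of the 9 passed the adjusted threshold there, where 3.35% of all probe sets did. With methylphenidate against sucrose, signals of exposed males fell for fit (-1.76 ± 0.27 SE, adjusted p = 0.00133), sug (-0.99 ± 0.14), AkhR (-1.05 ± 0.11), Lsd-1 (-0.81 ± 0.11), CCHa2 (-0.93 ± 0.09) and Jabba (-1.32 ± 0.09), and rose for Lst (0.58 ± 0.14, adjusted p = 0.032). The difference of the effects, sons minus exposed males, was 2.80 ± 0.38 for fit and 1.55 ± 0.16 for AkhR, and -1.20 ± 0.19 for Lst (limma adjusted p = 0.000823, 7.87e-05 and 0.00351). It passed for 7 of the 9 genes. The 9 were selected by their p in the sons, which enters this difference; of all 1513 probe sets selected that way 150 passed, and of all probe sets 2.09%. The comparisons share no arrays, but they come from 1 fit and use the same estimate of spread for each probe set. They are thus not independent, as a small spread favours a small p in both.

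The opposite sign was not limited to nutrient genes. Of the 30 named probe sets with the smallest p in the sons, 24 had the opposite sign in exposed males; 7 of these passed there, and none passed there with the same sign. Of the 1513 probe sets with an unadjusted p under 0.05 in the sons 1013 had the opposite sign. Of the 82 among them that also passed in exposed males 67 did. Among all probe sets that passed in exposed males, whatever their p in the sons, 389 had the opposite sign and 240 the same. CG13912 was lower in exposed males (-1.62 ± 0.11, adjusted p = 3.51e-07), and the effects differed by 2.34 ± 0.15 (adjusted p = 9.96e-07). CG12780 (0.78, adjusted p = 0.0048), Muc68E (1.07) and CG8708 (1.01) were higher in exposed males. CG15818 was higher there too (0.49, adjusted p = 0.0221), while CG4250 (-0.53, adjusted p = 0.133) and CG13743 (-0.39, adjusted p = 0.142) did not pass. CG42822 differed by -0.04 and CG15255 by 0.06 in exposed males (adjusted p = 0.937 and 0.896).

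**Figure D4:**
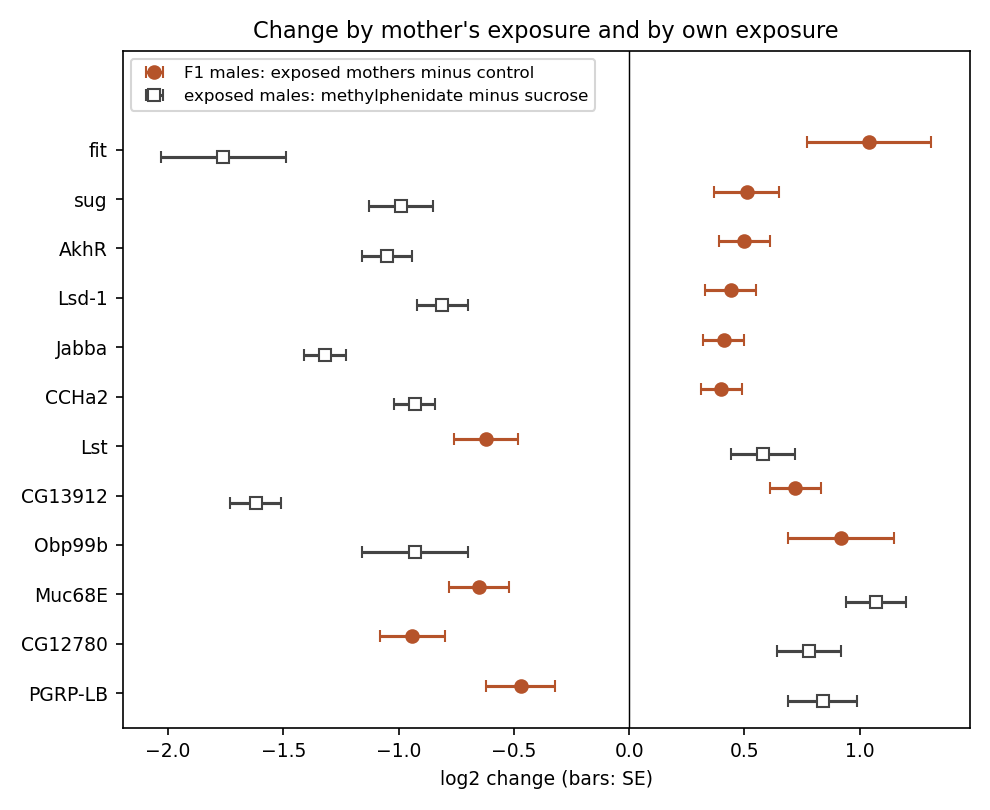
Log2 change with its SE for 12 genes, by the mother's exposure in F1 males (filled circles, sons of exposed mothers minus control sons) and by the males' own exposure (open squares, methylphenidate minus sucrose). For each gene the circle and the square lie on opposite sides of 0, as with fit at 1.04 in the sons and -1.76 in exposed males. The genes were picked for this plot after their values were seen.

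Of the 8 core clock genes 3 were higher and 2 lower at an unadjusted p under 0.05, against 5.76% and 2.3% of all probe sets, with none past the adjusted threshold. Without control replicate 3 the count was 2 and 1. The CLOCK partner gene cyc was lower, with 2.52, 2.45 and 2.34 in sons of exposed mothers and 2.73, 3.03 and 2.88 in control sons (-0.44 ± 0.09, limma adjusted p = 0.218). Clk itself was higher, with 3.0, 3.17 and 3.17 in sons of exposed mothers and 2.77, 2.92 and 2.77 in control sons (0.30 ± 0.09, adjusted p = 0.461). Both genes separated the groups without overlap. The effect on cyc differed from that in exposed males by -0.58 ± 0.12 (adjusted p = 0.0227).

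The other clock genes had differences of either sign. The repressor gene vri was lower, with 3.62, 3.67 and 3.68 in sons of exposed mothers and 3.81, 3.84 and 3.91 in control sons (-0.20, unadjusted p = 0.0319). Pdp1, the activator of Clk, differed by 0.31 (unadjusted p = 0.0218), with 5.19, 4.99 and 5.21 in sons of exposed mothers and 5.07, 4.65 and 4.73 in control sons, and overlapped. The repressor gene per, close to the floor, read 0.82, 0.55 and 1.08 in sons of exposed mothers and 0.45, 0.59 and 0.32 in control sons (0.37, unadjusted p = 0.00816). The groups overlapped for its partner tim, at 5.21, 5.35 and 5.31 in sons of exposed mothers and 5.32, 5.29 and 5.18 in control sons (0.03 ± 0.07), and its sign turned under other scalings. The repressor gene cwo differed by 0.13 and the photoreceptor gene cry by -0.01 (unadjusted p = 0.186 and 0.856). Of 14 clock kinase and output genes 0 were higher and 1 lower at an unadjusted p under 0.05. That gene was cyc again, a member of both lists and counted in both.

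Digestive genes leaned down. Of 49 measured enzymes and gut mucins 0 were higher and 5 lower at an unadjusted p under 0.05, 1 and 10 were so without overlap, and the median log2 change was -0.15, with a negative sign in 38. Of all probe sets 2.3% were lower by p and 3.94% lower without overlap. The counts were 0 and 8 after quantile normalization and 0 and 5 without control replicate 3, but 0 and 1 without replicate 2 of both groups, where the median was -0.06. In these settings, in that order, 3.78%, 2.81% and 1.29% of all probe sets were lower. The chymotrypsin-like protease gene Jon99Fi had 5.85, 5.71 and 6.05 in sons of exposed mothers and 6.68, 6.17 and 6.51 in control sons (-0.59 ± 0.24, limma adjusted p = 0.597). The maltase gene Mal-A8 differed by -0.34 and the trypsin gene kappaTry by -0.30. Jon99Fi was also lower in exposed males, by a larger -3.26 ± 0.24 (adjusted p = 1.28e-06), whereas Mal-A8 there differed by 0.53 (adjusted p = 0.0572). The protease gene CG11911, named for its size, had 4.16, 4.02 and 4.51 in sons of exposed mothers and 5.12, 5.08 and 5.30 in control sons (-0.94 ± 0.24, adjusted p = 0.304). Of 30 mucin and peritrophin genes 0 were higher and 2 lower at an unadjusted p under 0.05, Muc68E and Mur29B (-0.52).

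Immune genes held both differences between the groups and differences between single arrays. Of 10 recognition genes 0 were higher and 2 lower at an unadjusted p under 0.05, CG12780 and PGRP-LB, an amidase that degrades peptidoglycan and damps the response. PGRP-LB had 2.58, 3.03 and 2.82 in sons of exposed mothers and 3.12, 3.60 and 3.14 in control sons (-0.47 ± 0.15, limma adjusted p = 0.497), without overlap. In exposed males it was higher by 0.84 (adjusted p = 0.00504), and the effects differed by -1.31 ± 0.21 (adjusted p = 0.00382). Of 28 antimicrobial peptide and effector genes 1 was higher, the NF-kappaB factor gene Rel (0.20), and 3 lower: the drosomycin-like genes Drsl5 (-0.38) and Drsl4 (-0.20), and the attacin gene AttD (-0.44). The counts were 0 and 7 without control replicate 3 and 0 and 5 after quantile normalization. Among all probe sets 5.76% were higher and 2.3% lower with the deposited values. These shares were 2.94% and 2.81% without control replicate 3, and 3.77% and 3.78% after quantile normalization.

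Replicate 2 of each group held high signals of antimicrobial peptide genes. The metchnikowin gene Mtk was at 1.86, 7.18 and 1.73 in sons of exposed mothers and 2.15, 8.44 and 1.19 in control sons, so that replicate 2 of either group stood apart. DptB, a diptericin, had 1.63, 3.02 and 1.64 in sons of exposed mothers and 1.59, 6.91 and 1.28 in control sons (-1.16 ± 1.02). The immune peptide gene edin read 0.18, 2.60 and 0.29 in sons of exposed mothers and 0.08, 5.24 and 0.20 in control sons. Drs, the drosomycin gene, was highest in control replicate 2 as well, at 7.95, against 5.88 to 6.55 in sons of exposed mothers and 6.45 and 6.14 in the other control arrays. The bomanin gene BomBc3 followed with 7.26 in that array, against 5.37 to 5.83 in sons of exposed mothers. Mtk, edin, Drs and BomBc3 were chosen after their values were seen. CG4757 was high in that control array alone, at 6.18, with 1.61, 1.72 and 1.82 in sons of exposed mothers and 1.10 and 0.95 in the other control arrays. Without control replicate 2 the change of DptB was 0.66 and that of CG4757 0.69. Without replicate 2 of both groups the effector list had 1 gene higher and 1 lower, against 5.47% higher and 1.29% lower of all probe sets.

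Of the widest changes by size, those of CG16775, fit, CG12780, CG11911, CG4250, CG30033 and Obp99b came from groups without overlap. Several others came from arrays that disagreed within a group, with or without overlap of the groups. HSPBAP1 had 0.87, 0.98 and 0.89 in sons of exposed mothers and 3.72, 3.65 and 0.89 in control sons, so the change of -1.84 ± 0.52 (limma adjusted p = 0.397) was carried by 2 control arrays. Without control replicate 3 it was -2.77 and passed, with an adjusted p of 1.92e-06. CG6733 had 2.44, 0.73 and 0.60 in sons of exposed mothers and 1.60, 2.58 and 2.61 in control sons, and overlapped. CG40486 had 5.05, 4.88 and 5.14 in sons of exposed mothers and 4.60, 3.95 and 2.78 in control sons (1.25 ± 0.34). Its groups did not overlap, but the control arrays spread over a wide range, and the change was 0.75 without control replicate 3. The largest positive change of all, 1.84, belonged to the unnamed probe set 1626429_at, with 4.43, 3.79 and 4.46 in sons of exposed mothers and 3.34, 2.39 and 1.42 in control sons (adjusted p = 0.266). CG14759 (0.92) and the non-coding RNA lncRNA:CR40465 (0.92) were higher without overlap.

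Among fat body and storage protein genes, some arrays also disagreed within a group. Of 18 genes, fit among them, 5 were higher and 0 lower at an unadjusted p under 0.05, with a median of 0.12, and 3 and 0 without control replicate 3. The shares over all probe sets were 5.76% and 2.3%, and 2.94% and 2.81% without that array. Fbp1, the receptor that takes up storage hexamerins, had 4.44, 3.37 and 4.51 in sons of exposed mothers and 3.29, 3.04 and 1.88 in control sons (1.37 ± 0.42, limma adjusted p = 0.461). Its groups did not overlap, and the change was 0.95 without control replicate 3. Fbp2 had 5.16, 3.94 and 4.90 in sons of exposed mothers and 3.77, 4.03 and 2.25 in control sons (1.32 ± 0.45), with overlap, and the change was 0.77 without control replicate 3. The storage protein gene Lsp2, chosen after its values were seen, had 9.18, 8.74 and 9.12 in sons of exposed mothers and 8.88, 8.16 and 7.97 in control sons. In all 3 genes control replicate 3, the dim array, was lowest and replicate 2 was the lowest of the sons of exposed mothers. Obp99b, a secreted odorant-binding protein, had 8.63, 8.22 and 8.56 in sons of exposed mothers and 7.46, 8.11 and 7.09 in control sons (0.92 ± 0.23), against -0.93 (adjusted p = 0.0441) in exposed males.

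**Figure D5:**
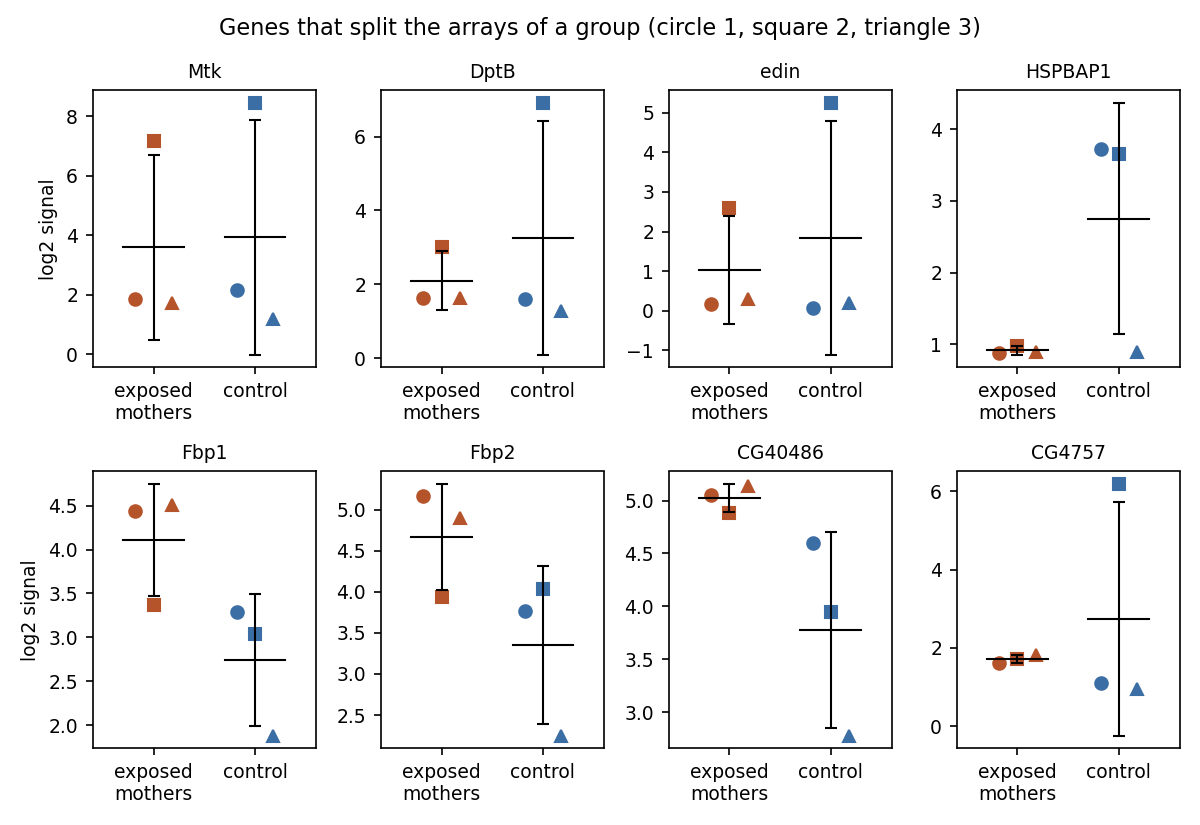
Log2 signal of 8 genes whose arrays differed within a group, 1 point per array, sons of exposed mothers on the left and control sons on the right of each panel (circle, replicate 1; square, replicate 2; triangle, replicate 3). Lines are means and bars 1 SD (n = 3). Replicate 2 stands highest for Mtk, DptB and edin in both groups, HSPBAP1 is high in 2 control arrays, and control replicate 3 is lowest for Fbp1, Fbp2 and CG40486.

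Genes of neurons, eyes and muscle had small positive median changes in the deposited values. Of 37 neuron and synapse genes 8 were higher and 2 lower at an unadjusted p under 0.05 (median 0.15), among them the potassium channel genes slo (0.31) and Shab (0.27), the acetylcholine synthesis gene ChAT (0.28) and the vesicle fusion gene Snap25 (0.30). Snap25 read 6.27, 6.08 and 6.20 in sons of exposed mothers and 6.13, 5.86 and 5.65 in control sons, lowest in the dim array. Of 19 phototransduction and eye genes 5 were higher and 0 lower, for example eys (0.29) and chp (0.23), and of 23 muscle genes 2 and 0, TpnC73F (0.25) and the paramyosin gene Prm (0.23). Of all probe sets 5.76% were higher and 2.3% lower, and the muscle count lay near the share of higher ones. Without control replicate 3 the counts were 3 and 1 for neurons, 2 and 0 for eyes and 0 and 0 for muscle. In that setting 2.94% of all probe sets were higher and 2.81% lower. Of the markers, the neuronal gene elav spanned 3.08 to 3.26 in sons of exposed mothers and 2.79 to 3.18 in control sons, and the eye channel gene trp 5.63 to 5.85 in sons of exposed mothers and 5.53 to 5.67 in control sons. The part of tissue makeup in these values was not tested.

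Among 29 biogenic amine genes, which include the target of the drug, 2 were higher and 0 lower at an unadjusted p under 0.05. The 6.9% that were higher lay near the 5.76% of all probe sets. The dopamine receptor gene Dop2R, near the floor, had 1.30, 1.19 and 0.99 in sons of exposed mothers and 0.96, 0.89 and 0.47 in control sons (0.39 ± 0.15, limma adjusted p = 0.556). The vesicular transporter gene Vmat differed by 0.20 and the serotonin receptor gene 5-HT1A by 0.23 (adjusted p = 0.619 and 0.636). DAT, the dopamine transporter, chosen after its values were seen, overlapped, with 1.44, 1.30 and 1.28 in sons of exposed mothers and 1.53, 1.26 and 0.99 in control sons (0.08 ± 0.12). Without control replicate 3 no gene of this list had an unadjusted p under 0.05. Of 35 neuropeptide genes 4 were higher and 3 lower, against 5.76% and 2.3% of all probe sets, among them the leucokinin gene Lk (0.27) and CCAP (-0.23). These counts include CCHa2 and Lst, already counted among the nutrient genes.

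Of 18 activity-regulated genes 5 were higher and 0 lower at an unadjusted p under 0.05, and 8 were higher without overlap, against 5.76% and 7.56% of all probe sets. Hr38, a nuclear receptor induced by neuronal activity, had 1.82, 1.90 and 1.79 in sons of exposed mothers and 1.58, 1.37 and 1.27 in control sons (0.43 ± 0.10, limma adjusted p = 0.275). The transcription factor gene cbt read 5.94, 6.05 and 6.05 in sons of exposed mothers and 5.76, 5.78 and 5.71 in control sons (0.27 ± 0.08), while it was lower in exposed males (-0.45, adjusted p = 0.00427). The phosphatase gene puc, a feedback inhibitor of JNK signalling, differed by 0.22. The counts were 4 and 0 after quantile normalization and 3 and 0 without control replicate 3.

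Of 20 heat shock and chaperone genes 5 were higher and 0 lower at an unadjusted p under 0.05, against 5.76% and 2.3% of all probe sets. Hsp68 had 3.67, 3.76 and 3.79 in sons of exposed mothers and 3.43, 3.47 and 3.27 in control sons (0.35 ± 0.09, limma adjusted p = 0.322). The endoplasmic reticulum chaperone genes Gp93 (0.18) and Hsc70-3 (0.17) and the co-chaperone gene DnaJ-1 (0.16) differed by less. The count was 1 and 0 both after quantile normalization and without control replicate 3, where 3.77% and 2.94% of all probe sets were higher. Of 29 antioxidant and stress genes 1 was higher, Gclm (0.27), a subunit of the enzyme that limits glutathione synthesis.

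Detoxification genes differed in either direction in the sons. Of 83 P450 genes 5 were higher and 4 lower at an unadjusted p under 0.05 (median 0.01), of 34 glutathione S-transferases 4 and 1, and of 35 UDP-glycosyltransferases 4 and 2. Over all probe sets 5.76% were higher and 2.3% lower, so the 6.02% of P450 genes that were higher lay near that share. Without control replicate 3 the counts were 3 and 4, 2 and 0, and 1 and 2. Cyp6w1 was lower, with 4.68, 4.66 and 4.43 in sons of exposed mothers and 5.33, 5.25 and 5.59 in control sons (-0.80 ± 0.20, limma adjusted p = 0.316), against 3.76 ± 0.20 in exposed males (adjusted p = 6.21e-08). Cyp4p1 differed by 0.34 in the sons and 1.42 in exposed males, and Cyp4aa1 by 0.42 in the sons and 0.08 in exposed males. GstE7 was higher by 0.54 ± 0.17 in the sons, with 4.90, 4.70 and 5.11 in sons of exposed mothers and 4.69, 3.99 and 4.41 in control sons, and by 0.80 in exposed males (adjusted p = 0.0176). Cyp6a8, chosen after its values were seen, differed by -0.19 ± 0.34 in the sons and by 5.28 in exposed males.

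Of germline and regulatory genes, the piRNA list held a share of higher genes, and the ecdysone list a share of lower genes, above those of all probe sets (5.76% and 2.3%). Of 33 piRNA and germline genes, many of which act in silencing transposons in the gonad, 5 were higher and 0 lower at an unadjusted p under 0.05. Of these vret led, with 1.30, 0.95 and 1.24 in sons of exposed mothers and 0.74, 0.79 and 0.72 in control sons (0.41 ± 0.09, limma adjusted p = 0.275). It was followed by Panx (0.30), del (0.44) and papi (0.18). Without control replicate 3 the count was 3 and 0. Of 44 chromatin regulators 2 were higher and 1 lower, the last being msl-2 (-0.33), the male-specific factor of dosage compensation, at a dim 0.68, 0.53 and 0.44 in sons of exposed mothers and 0.70, 0.87 and 1.05 in control sons. Of 28 ecdysone and juvenile hormone genes 1 was higher, the ecdysone synthesis gene shd (0.34), and 4 lower, with counts of 0 and 3 without control replicate 3. The lower ones included JhI-26 (-0.24), which was higher in exposed males (0.65, adjusted p = 0.000147). Of 50 testis and 31 accessory gland genes 1 and 2 were higher and none lower, with Sfp26Ad at 0.32, and of 21 female reproductive genes 1 was higher. Of 24 metal genes 3 were higher and 1 lower, with the metal-responsive factor gene MTF-1 at 0.25 and the copper chaperone gene Ccs at -0.23.

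None of the sensory, cuticle and housekeeping genes passed the adjusted threshold. The counts here are at an unadjusted p under 0.05, where 5.76% of all probe sets were higher and 2.3% lower. Of 47 odorant-binding protein genes 3 were higher and 0 lower, of 166 odorant and gustatory receptor genes 3 and 2, led by Gr22e (0.40 ± 0.10, at the floor), and of 100 cuticle genes 5 and 7, with Cpr30F at 0.36 and Cpr67B at -0.32, the lower ones above the 2.3% of all probe sets. Of 40 cytoplasmic ribosomal protein genes, 69 mitochondrial ribosomal protein genes and 40 proteasome genes 0 were higher and 0 lower, and of 72 oxidative phosphorylation genes 1 was higher, ATPsynepsilonL (0.19). The 7 Y-linked genes, all dim, gave 0 and 0. The median log2 changes of these housekeeping lists lay between -0.02 and 0.00, below the 0.03 of all probe sets.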

How the data were processed

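RNA of whole male flies was measured on 12 Affymetrix Drosophila Genome 2.0 arrays. The authors deposited 1 log2 signal for each probe set on each array. The submitters' processing notes name RMA, affy and limma, with no version, order or setting. The log base was checked on bacterial spike controls, whose signal rose by 6.22 from BioB to Cre, against 6.06 for the log2 of their nominal ratio. Leaving out 183 controls from 18952 probe sets left 18769 for the tests, with no filter. Of these 13647 had 1 gene, 402 several and 4720 none, and 13544 symbols were updated from RefSeq. Between 36.8% and 38.8% of probe sets lay under 0.5 on each array, where changes are understated.

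All 12 arrays entered 1 fit of 4 group means (limma 3.58.1, R 4.3.3, default eBayes). Beside the F1 contrast, 2 others are used: methylphenidate minus sucrose in exposed males and the difference of both effects. Adjusted p-values are Benjamini-Hochberg over 18769 probe sets, two-sided. The median SE of an F1 log2 change was 0.0924 and the median half-width of its 95% interval 0.198. Named genes were those past the threshold, the 15 with the smallest p and the 8 with the largest change in each direction, up to 4 by p of each gene list, all core clock genes, and AkhR, Lsd-1, sug and fit. In lists, the brightest probe set of a gene stood for it. Members and lists were chosen with earlier results of these data known. In simulated data with 200 changed probe sets the F1 contrast recovered 74.6% of log2 changes of 0.5 and 100% of those of 1 and 2. The simulation drew independent normal noise, with no dim or deviating array, and its 200 true changes loosen the adjusted threshold. These rates therefore cannot be carried over to the real arrays. There fit (1.04, limma adjusted p = 0.322) and Fbp1 (1.37, adjusted p = 0.461) did not pass.

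Over all probe sets, deviations of same-numbered F1 arrays correlated at -0.087, 0.128 and -0.034 for replicates 1, 2 and 3. Those of other-numbered F1 arrays correlated at -0.138 to 0.194, so the numbers were not used as pairs. Replicate 2 of both groups did share high Mtk signals, and whether these arrays had a culture or batch in common is not stated. Alternatives were other scalings, filters, eBayes settings, array weights, 1 probe set per gene, a GAPDH 3′ minus 5′ covariate, a replicate block and leaving out each array. Leaving out both arrays with high Mtk, and the list counts without single arrays or after quantile normalization, were chosen after seeing the data. Python 3.11.15 and matplotlib 3.10.9 drew the plots.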

Additional observations from a re-analysis of the deposited data

Results flagged for a closer look

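The difference between the effect of the mother's exposure in the sons and that of the males' own exposure was tested for each probe set. Of 185 named probe sets 43 passed (limma adjusted p between 9.96e-07 and 0.0489), against 393, 2.09%, of all 18769. Named probe sets were chosen largely by their p or change in the sons, which enter this difference. The 43 are thus a description and no independent test. The differences below are the effect in the sons minus that in exposed males, on the log2 scale. The effect in the sons was lower for 18. GstD2 differed by -6.13 and Cyp6a8 by -5.47, both chosen after their values were seen. In the sons GstD2 changed by -0.07 ± 0.31 (SE) and Cyp6a8 by -0.19 ± 0.34, against 6.06 and 5.28 in exposed males. These 2 differences thus lie almost wholly in the exposed males. Cyp6w1 differed by -4.56, CG11911 by -1.76, Muc68E by -1.73, CG12780 by -1.72, CG8708 by -1.55, CG16775 by -1.47, PGRP-LB by -1.31 and Lst by -1.20. Cyp4p1 differed by -1.08, CG15818 by -0.99, JhI-26 by -0.89, Mal-A8 by -0.87, FucTC by -0.77, CG15255 by -0.74, Nep7 by -0.66 and cyc by -0.58.

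The effect in the sons was higher for 25. Among nutrient and fat body genes, fit differed by 2.80, Obp99b by 1.84, Jabba by 1.73 and 1.39 in its 2 probe sets, AkhR by 1.55, sug by 1.5, CCHa2 by 1.34 and Lsd-1 by 1.24. The protease gene Jon99Fi differed by 2.68, CG13912 by 2.34, lncRNA:CR40465 by 1.51, CG4250 by 1.42, CG14759 by 1.35 and CG13743 by 1.01. CG42822 differed by 0.89, the unnamed 1626830_at by 0.84, shd by 0.80, Cyp4ad1 by 0.77, cbt by 0.71, CenB1A by 0.67, Cpr49Ab by 0.64, CG8490 by 0.62, Ugt50B3 by 0.59, mub by 0.51 and Ctr1C by 0.50. For Jon99Fi, Cyp4p1 and 1626830_at the effects had the same sign, and the difference is one of size.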

How the results depend on the processing

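The F1 count past the threshold, 1 with all arrays, was 2 with only the F1 arrays or after quantile normalization, 4 after centring, 5 with trend and robust eBayes, and 0 with array weights, without the dimmest 50% of probe sets, with 1 probe set per gene or without both arrays with high Mtk. The 50% filter and the gene-level fit leave out the dim, unnamed probe set by construction; for the other counts the cause was not tested. Leaving out single F1 arrays gave 0 to 2. A fit with the replicate block called 1 probe set, CG16775, which was lower (adjusted p = 0.00235), and 1626830_at had an adjusted p of 0.0511; with array weights it was 0.0665. The 1513 probe sets with an unadjusted p under 0.05 became 900 under the 50% filter and 993 with 1 probe set per gene, where fewer are tested, and 1079 to 2219 when single arrays were left out. The count of 393 for the difference of effects was 616 with trend and robust eBayes, 209 with the GAPDH covariate and 241 to 538 without single arrays; it was 260 without control replicate 2, 244 and 241 when replicate 2 or 3 from exposed mothers was left out, and 258 without replicate 3 of the sucrose-exposed males. Of 2900 alternative values of 185 named probe sets, 2859 kept their direction and side of the threshold. As only 1 of the 185 passed with all arrays, this mostly counts probe sets that stayed short of the threshold. In 6 the call of 1626830_at was lost. In 14 a gene came to pass, among them CG12780 after quantile normalization (adjusted p = 0.0407) and without control replicate 3 (0.0436), and CG13912 after centring (0.0464). The sign turned in 21: tim was at -0.01 after quantile normalization, -0.04 after centring, -0.02 to 0.06 when single arrays were left out (-0.02 without control replicate 3, -0.01 without replicate 2 from exposed mothers). Without control replicate 2, cry was at 0.02 (range over single arrays left out -0.04 to 0.02), DptB at 0.66 (-2.15 to 0.66) and CG4757 at 0.69 (-1.92 to 0.69), Mtk at 1.92 (-2.13 to 1.92, with 0.53 and 0.59 without replicate 1 or 3 from exposed mothers), edin at 0.88 (-1.70 to 0.88) and Def at 0.17 (-0.63 to 0.17). With single arrays left out, RpS10a ranged over -0.02 to 0.17, DAT over -0.05 to 0.21, Cyp6a8 over -0.64 to 0.21, GstD2 over -0.37 to 0.12 and Yp1 over -0.00 to 0.03. After centring, SP and Yp1 were at -0.05. The block changed the call of no other named gene. Depth is not a quantity of arrays; signals near the floor limit the dim genes.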
